A study of Mus musculus with 6 samples.

Results

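The respiratory chain of the mitochondrion is built from subunits encoded in the nucleus and from a small set encoded on mitochondrial DNA. Its genes were followed here in whole-lung RNA of Balb/c mice that had received 4T1 cells, a mouse mammary carcinoma line, through the tail vein. Both groups received 250000 cells and were taken after 7 days, and all lungs were flushed with 20 mL of PBS before homogenization. The WT group (3 libraries) received unedited 4T1 cells and the KO group (3 libraries) received 4T1 cells knocked out for PD-L1. The labels give the host strain but no host genotype, age or sex, and do not state whether the KO line was 1 clone. WT and KO name the injected cells throughout, and each library holds RNA of host lung and tumour cells together.

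Genes were taken as members by name alone, with no use of their change between groups. A row entered when its symbol was of the Ndufa, Ndufb, Ndufc, Ndufs, Ndufv, Cox4 to Cox8, Uqcr or Atp5 form or was a protein-coding mt- gene, and when its counts summed to 60 or more over the 6 libraries. This gave 86 of 35275 gene rows, of which 74 are nuclear and 12 mitochondrial-encoded. Of the nuclear genes 36 belong by symbol to complex I, 8 to complex III, 13 to complex IV and 17 to complex V. Of 90 rows that match by name, 4 fell below the minimum. These were mt-Atp8 with 2 counts, the testis forms Cox7b2 and Cox8c with 0 counts, and the pseudogene Cox6c2 with 1. A second reference entry named Atp5o has no row and was not analysed here. The name rule does not match Cox4i1, Cox4i2, Cox7a2l, Ndufab1 and Cyc1, which are counted further on with the genes of related function. All 86 genes passed the filter on low counts and were tested.

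In the inner mitochondrial membrane, complex I takes electrons from NADH, complex III passes them from ubiquinol to cytochrome c, and complex IV hands them to oxygen. Complexes I, III and IV pump protons as they do so, and complex V, the ATP synthase, lets the protons back and makes ATP. The catalytic cores of complexes I, III and IV hold the mitochondrial-encoded subunits, around which nuclear-encoded core and accessory subunits are assembled. Complex II, also called succinate dehydrogenase, is wholly nuclear-encoded. In the lung, alveolar type 2 cells, ciliated cells and club cells are known as rich in mitochondria.

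The libraries held 14711459 to 16932114 counts and 17520 to 19156 genes with a count. A gene at 0 could lie below 0.176 to 0.206 CPM (counts relative to the library total, scaled by TMM, edgeR's trimmed mean normalisation, whose factors lay between 0.990 and 1.01). This limit of 3 counts covers counting error only. Cd274, the gene edited in the injected cells, stood at 62.6, 53.6 and 74.3 CPM in the WT libraries and 97.4, 197 and 301 CPM in the KO libraries. Host lung cells keep the gene, so these values do not check the edit. Markers of type 2 cells (Sftpc), type 1 cells (Ager) and endothelium (Pecam1) were high in all libraries, at 9867, 1335 and 362 CPM per kb of transcript. It is not stated that each library is a separate animal, and the p-values below rest on the spread between libraries alone. Values listed per group run from replicate 1 to replicate 3.

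In lungs given PD-L1 KO cells 4 nuclear-encoded subunits rose and none fell. They were Cox5a and Cox5b of complex IV, Ndufb3 of complex I and Uqcrb of complex III, each higher by 0.75 to 0.95 on the log2 scale. A gene was called at an adjusted p under 0.05 in edgeR's quasi-likelihood test over 15191 genes. The 4 of 74 nuclear genes are 5.41%, where 1.12% of all tested genes were called higher in KO and 0.336% lower. None of the 12 mitochondrial-encoded genes was called in either direction. At an unadjusted p under 0.05 by edgeR there were 37 of 74 nuclear genes, 0 of 12 mitochondrial-encoded genes and 2221 of 15191 tested genes.

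Most nuclear genes had a positive difference in this fit. A correction for transcript length and GC content, described further on, left 42 of 74 above 0 with a median of 0.02 and ended all 4 calls. Without it, the fitted log2 difference, KO minus WT, was above 0 for 68 of 74 nuclear genes, with a median of 0.32 (middle 50% of genes 0.24 to 0.51), against 7740 of 15191 and a median of 0.01 over all tested genes. For 35 of 74 nuclear genes (47.3%) the lowest KO library was above the highest WT library, which held for 10.3% of all tested genes. The opposite order, all KO below all WT, occurred for 0 nuclear members and for 9.4% of tested genes. For the mitochondrial-encoded genes the median difference was 0.18 with all 12 above 0, yet in none of them did the groups separate. In RNA of whole lung, a change in the number of cells rich in these transcripts and a change in RNA per cell cannot be told apart.

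**Figure D1:**
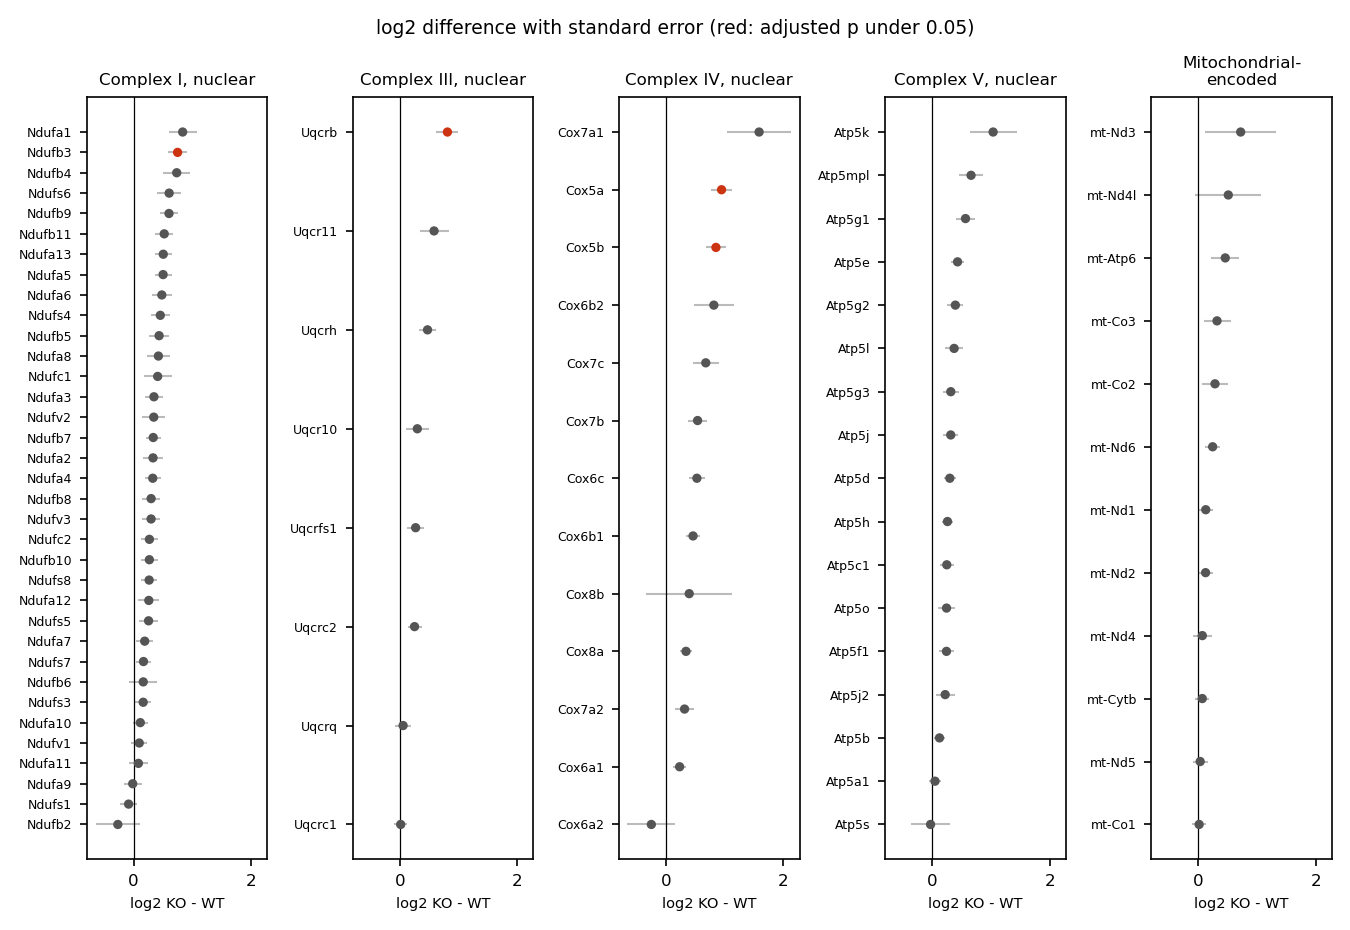
Fitted log2 difference (KO minus WT, horizontal axis) with its standard error for 85 of the 86 genes, in panels by complex and genome; red points mark an adjusted p under 0.05. Most nuclear genes sit right of 0, 4 are red, and no mitochondrial-encoded gene is red.

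Complex I is the largest complex, and its 36 nuclear genes had a median log2 difference of 0.31. Of these genes 1 was called higher (2.78%), against 1.12% of all tested genes. With the correction for transcript length and GC content the median was 0.02. The call was Ndufb3, an accessory subunit of the membrane arm (ENSMUSG00000026032, chr1:58586384-58595964, plus strand, GRCm38). It stood at 22.1, 20.1 and 25.6 CPM in the WT libraries and 32.1, 40.6 and 41.5 CPM in the KO libraries. The lowest KO library was above the highest WT library. Group means were 22.6 ± 2.76 CPM in WT and 38.0 ± 5.21 CPM in KO (SD, n = 3), a log2 difference of 0.75 ± 0.16 (SE, adjusted p = 0.0402). Ndufb9 and Ndufb11, further accessory subunits of the membrane arm, were not called. Ndufb9 stood at 47.5, 34.7 and 53.0 CPM in WT and 64.4, 65.4 and 75.5 CPM in KO, a difference of 0.60 ± 0.15 (adjusted p = 0.0739), and Ndufb11 at 63.7, 48.3 and 76.9 CPM in WT and 91.3, 80.1 and 99.7 CPM in KO (0.52 ± 0.16, adjusted p = 0.122). In both, as in Ndufb3, the groups did not overlap. All KO libraries were above all WT libraries in 15 of the 36 genes (10.3% of all tested genes). The largest fitted difference of the complex was that of Ndufa1, an essential small subunit of the membrane arm, with means of 15.8 ± 6.11 CPM in WT and 28.1 ± 2.92 CPM in KO (SD, n = 3), and it was not called (0.84 ± 0.24, adjusted p = 0.102).

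Core subunits of complex I, which carry the flavin and the iron-sulfur clusters, differed less than accessory ones. The 7 core genes had a median log2 difference of 0.16, and 1 of 7 had all KO above all WT libraries. The 29 accessory genes had a median of 0.33, and 14 of 29 had all KO above all WT (10.3% of all tested genes). This is a description of fitted values, with no test between the 2 sets, and the core transcripts were longer (median 1623 against 732 bases). With the correction for transcript length and GC content the medians were -0.05 for core and 0.04 for accessory genes. Ndufs1, the largest iron-sulfur subunit, was at 46.8, 54.1 and 55.6 CPM in WT and 50.2, 55.9 and 41.6 CPM in KO, a difference of -0.08 ± 0.14 (adjusted p = 0.844). Ndufv1, which binds NADH, had 0.10 ± 0.14 (adjusted p = 0.812). In neither did the groups separate. The largest core difference was that of Ndufv2 at 0.34 ± 0.19 (adjusted p = 0.448).

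Per kb of transcript, Ndufa4 was the most abundant nuclear gene of the complex I set, at 132 CPM per kb, followed by Ndufb11 at 84.4. Ndufa4 carries a complex I name, although its protein is now placed in complex IV. It stood at 77.8, 63.9 and 72.5 CPM in WT and 83.5, 78.6 and 106 CPM in KO, a log2 difference of 0.33 ± 0.13 (adjusted p = 0.270). The least counted was Ndufb2, with 408 counts in all and 4.26, 6.69 and 3.15 CPM in WT and 4.31, 4.26 and 3.17 CPM in KO. Its principal transcript in the annotation spans 4371 bases and shares bases with the neighbouring gene Braf, so its level was not compared per kb.

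Complex III had 8 nuclear genes with a median log2 difference of 0.28 and 1 call (1.12% of all tested genes were called higher). All KO were above all WT in 3 of 8 (10.3% of all tested genes). With the correction for transcript length and GC content the median was 0.08. Uqcrb, an accessory subunit near the ubiquinone-binding site (ENSMUSG00000021520, chr13:66900617-66905378, minus strand), stood at 15.7, 15.03 and 21.4 CPM in the WT libraries and 28.8, 27.1 and 35.7 CPM in the KO libraries. Both groups were apart, and the means were 17.4 ± 3.49 CPM in WT and 30.5 ± 4.54 CPM in KO (SD, n = 3). The log2 difference was 0.81 ± 0.19 (adjusted p = 0.0487), just under the threshold. With the RLE and upper-quartile scalings the adjusted p was 0.0515 and 0.0522, so this call depends on the scaling. A processed pseudogene, Gm2962, matches Uqcrb at 98.2% and held 37 counts in all, against 2257 for Uqcrb. Uqcrh, the acidic hinge protein that helps bind cytochrome c, was the most abundant per kb (139 CPM per kb) and stood at 70.7, 54.8 and 66.2 CPM in WT and 74.3, 86.9 and 105 CPM in KO (0.47 ± 0.14, adjusted p = 0.127). Uqcr10, a small accessory subunit, came next at 112 CPM per kb, with overlapping groups (0.30 ± 0.20, adjusted p = 0.531).

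The 3 core genes of complex III were not called. Uqcrc1, a core protein on the matrix side, was at 143, 121 and 109.8 CPM in WT and 124, 127 and 127 CPM in KO, and the KO values fell inside the WT range. Its log2 difference was 0.02 ± 0.11 (adjusted p = 0.967). Uqcrc2, its partner, had 0.25 ± 0.12 and the Rieske iron-sulfur protein Uqcrfs1 had 0.27 ± 0.15, with adjusted p of 0.351 and 0.430. The 5 accessory genes had a median of 0.47 and a median transcript length of 535 bases, against 0.25 and 1653 bases for the 3 core genes. With the correction for transcript length and GC content the medians were 0.081 for accessory and 0.083 for core genes. The sets overlapped, since the accessory gene Uqcrq had 0.06 ± 0.13 (adjusted p = 0.896), and they were not tested against each other.

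Complex IV, cytochrome c oxidase, had the highest median among the nuclear sets, 0.53 over 13 genes, with 2 called and 8 of 13 with the groups apart. Of all tested genes 1.12% were called higher, and 10.3% had all KO above all WT. The transcripts of complex IV were the shortest of the nuclear sets (median 618 bases). With the correction for transcript length and GC content its median was 0.19. Cox5a and Cox5b are subunits on the matrix side of the complex. Cox5a (ENSMUSG00000000088, chr9:57521274-57532426, plus strand) stood at 12.2, 12.2 and 14.5 CPM in the WT libraries and 22.3, 25.5 and 27.2 CPM in the KO libraries. Every KO library was above every WT library, and the means were 13.0 ± 1.34 CPM in WT and 24.98 ± 2.50 CPM in KO (SD, n = 3). The log2 difference was 0.95 ± 0.18 (adjusted p = 0.0236). Cox5b (ENSMUSG00000061518, chr1:36691449-36693681, plus strand) stood at 34.4, 37.8 and 57.6 CPM in the WT libraries and 79.2, 79.6 and 75.4 CPM in the KO libraries. WT replicate 3 was the highest of its group and still below the KO libraries, which lay close together. The difference was 0.85 ± 0.17 (adjusted p = 0.0266).

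The other subunits of the forms common to most tissues lay in the same direction without a call. Cox6c had 0.53 ± 0.13 (adjusted p = 0.0665) and Cox6b1, a subunit facing the intermembrane space, 0.46 ± 0.12 (adjusted p = 0.0779). Cox7c, a small membrane subunit, had means of 58.5 ± 20.5 CPM in WT and 93.4 ± 13.2 CPM in KO (SD, n = 3) and a difference of 0.68 ± 0.23 (adjusted p = 0.184). In all 3 the KO libraries exceeded the WT libraries. Of the 9 common forms, 7 had all KO above all WT (10.3% of all tested genes) and the median difference was 0.53. The most abundant per kb were Cox6a1 and Cox8a, at 256 and 197 CPM per kb. Cox8a stood at 100.2, 93.4 and 92.5 CPM in WT and 128, 124 and 111 CPM in KO (0.34 ± 0.11, adjusted p = 0.136). Cox6a1 stood at 142, 136 and 125 CPM in WT and 178, 160.1 and 136 CPM in KO, and here KO replicate 3 fell below WT replicate 1.

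Complex IV has muscle and testis forms of some subunits, which were low in these lungs. The muscle forms Cox6a2, Cox7a1 and Cox8b were at 5.61, 5.66 and 3.04 CPM per kb, against 256, 73.4 and 197 for their common counterparts Cox6a1, Cox7a2 and Cox8a. Cox7a1 stood at 1.72, 0.763 and 0.853 CPM in the WT libraries and 4.51, 3.01 and 2.50 CPM in the KO libraries. All KO libraries were above all WT libraries, but the counts were few (208 in all), and the difference of 1.59 ± 0.55 was not called (adjusted p = 0.184). Cox6a2 stood at 2.13, 5.64 and 4.66 CPM in WT and 3.73, 3.15 and 3.60 CPM in KO and Cox8b at 0.550, 0.646 and 1.64 CPM in WT and 1.03, 1.18 and 1.52 CPM in KO, with the groups overlapping in both. Cox7a2 stood at 51.7, 40.6 and 37.0 CPM in WT and 50.2, 45.7 and 65.0 CPM in KO (0.32 ± 0.16, adjusted p = 0.401). Cox6b2, the testis form of Cox6b1, stood at 3.37, 4.05 and 7.81 CPM in WT and 10.4, 9.63 and 6.83 CPM in KO (0.82 ± 0.34, adjusted p = 0.281), and WT replicate 3 overlapped the KO group. Summed markers of cardiac muscle, which lines the pulmonary veins of the mouse, were 34.2 to 47.4 CPM in WT and 30.3 to 65.2 CPM in KO, with 0 of 6 tested called and Nppa at 0. Summed skeletal muscle markers were 3.82 to 5.12 and 3.93 to 5.06 CPM. The part of such cells in the values of the muscle forms was not tested.

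**Figure D2:**
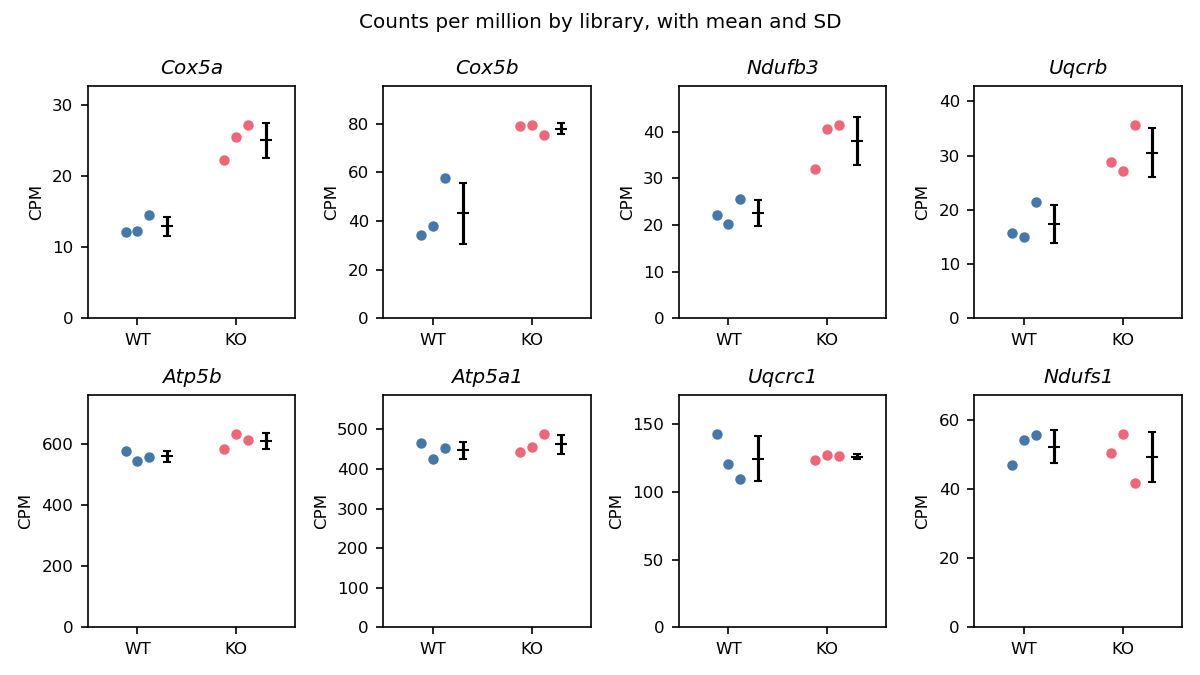
CPM (vertical axes from 0) of 8 nuclear genes in each WT (blue) and KO (red) library, with mean and SD over 3 libraries in black. The upper row shows the called genes Cox5a, Cox5b, Ndufb3 and Uqcrb with separated groups; Atp5b, Atp5a1, Uqcrc1 and Ndufs1 in the lower row have differences of -0.08 to 0.12.

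Complex V had no call. Atp5b, the catalytic beta subunit of the F1 head, was the most abundant nuclear member per kb, at 305 CPM per kb, and stood at 577, 544 and 558 CPM in WT and 584, 634 and 612 CPM in KO. The groups were apart, but the difference was small at 0.12 ± 0.10 (adjusted p = 0.618). Atp5a1, the alpha subunit, stood at 466, 424 and 452 CPM in WT and 442, 457 and 489 CPM in KO (0.05 ± 0.10, adjusted p = 0.879). Atp5e, the smallest subunit of F1, stood at 71.0, 58.0 and 72.9 CPM in WT and 91.0, 92.8 and 88.5 CPM in KO, with KO above WT throughout and a difference of 0.43 ± 0.12 (adjusted p = 0.0926). Over the 17 genes the median was 0.30, 16 were above 0 and 9 of 17 had all KO above all WT (10.3% of all tested genes). With the correction for transcript length and GC content the median was 0.02.

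The proton-carrying c-ring of complex V is encoded by Atp5g1, Atp5g2 and Atp5g3, which give the same mature protein. Atp5g1 stood at 24.1, 19.7 and 24.4 CPM in the WT libraries and 34.9, 34.1 and 31.9 CPM in the KO libraries, a difference of 0.57 ± 0.15 (adjusted p = 0.0907). Atp5g2 stood at 64.9, 52.1 and 66.8 CPM in WT and 79.5, 70.8 and 91.1 CPM in KO (0.39 ± 0.13, adjusted p = 0.178), and Atp5g3 had means of 72.0 ± 12.8 CPM in WT and 89.6 ± 7.93 CPM in KO (SD, n = 3) and a difference of 0.32 ± 0.14 (adjusted p = 0.293). KO exceeded WT in all libraries for Atp5g1 and Atp5g2, whereas for Atp5g3 KO replicate 2 fell below WT replicate 3. Atp5g1 has a near-identical processed copy, Gm10039, with 288 counts. Small membrane subunits had a median of 0.52 over 4 genes, none with the groups apart. Among them Atp5k, which takes part in dimer formation, had 1.04 ± 0.40 (adjusted p = 0.269) with 10.2, 5.52 and 21.6 CPM in WT and 29.5, 21.2 and 25.7 CPM in KO. The peripheral stalk, which holds F1 still against the turning ring, had a median of 0.25 over its 4 genes (Atp5f1, Atp5h, Atp5j and Atp5o). The groups were apart in all but Atp5o (all KO above all WT in 10.3% of all tested genes). With the correction for transcript length and GC content, medians were 0.08 for the c-ring, 0.13 for small membrane subunits and -0.02 for the stalk. Atp5s, coupling factor B, was the least counted, with 473 counts and a difference of -0.03 ± 0.33.

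Copies elsewhere in the genome touch 11 of the 74 nuclear genes, which match 14 transcripts at 98% identity or more over 200 bases or more. Of these copies 13 held counts, at most 674. That was Gm15920, a processed copy of Ndufa12, which itself held 2544 counts. Ndufa12 differed by 0.26 ± 0.18.

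Mitochondrial-encoded transcripts were counted at very unequal levels. The low ones above the minimum count coincide with a stretch that has a near-identical copy in the nuclear genome. mt-Co1, the catalytic subunit of complex IV, was highest at 4905 CPM per kb. mt-Cytb, the cytochrome b of complex III, followed at 2685 and mt-Nd1 of complex I at 2557. These 2 neighbours in the order overlapped in their libraries. Next came mt-Nd2 at 1545, mt-Nd4 at 999, mt-Nd5 at 958 and mt-Nd6 at 731 CPM per kb. The remaining genes were far lower. mt-Co2 was at 42.5, mt-Atp6 at 32.6, mt-Co3 at 30.4, mt-Nd4l at 11.5 and mt-Nd3 at 7.23 CPM per kb. mt-Atp8, below the minimum count, had 1 count in each of KO replicates 2 and 3 and 0 in the other libraries. mt-Atp8 overlaps mt-Atp6 on the genome (7766-7969 and 7927-8607 of chrM). mt-Nd6 lies on the minus strand and overlaps the end of mt-Nd5, and the strand setting of the counting is not given in the sources used here.

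**Figure D3:**
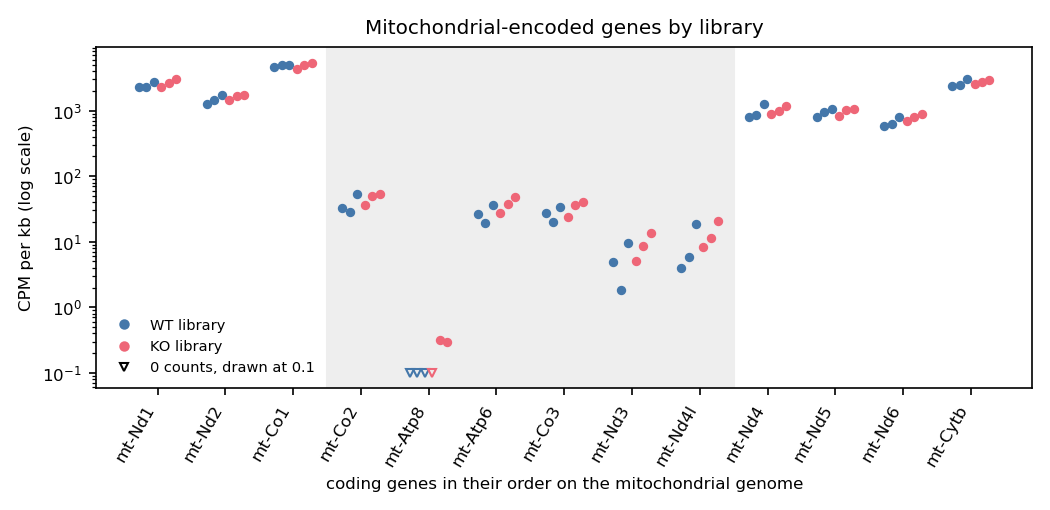
CPM per kb of gene length (log scale) for the 13 protein-coding mitochondrial genes in genome order, 1 point per WT (blue) or KO (red) library, open triangles marking 0 counts. The grey band runs from mt-Co2 to mt-Nd4l, which sit at 0.103 to 42.5 CPM per kb on average, while the genes on either side sit at 731 or above.

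The low genes are contiguous, and all but mt-Atp8 match 1 block of chromosome 1, chr1:24611535-24616197 in GRCm38, annotated as a run of unprocessed pseudogenes. There mt-Co2 matches Gm28661 over 681 bases, mt-Atp6 matches Gm10925 over 678 bases, mt-Co3 matches Gm28437 over 783 bases and mt-Nd4l matches Gm10222 over 294 bases, each with 0 mismatches. The copies of these genes and of mt-Nd3 held more counts than the genes themselves. Gm10925 held 4202 counts against 2087 for mt-Atp6, and Gm28438 held 1832 against 236 for mt-Nd3. The same block copies 876 of the 1378 bases of mt-Nd4 and the last 483 bases of mt-Co1, genes that also have bases without such a copy and that were counted at 129479 and 713871. No copy of at least 100 bases at 95% identity was found among annotated transcripts for mt-Nd1, mt-Nd6, mt-Cytb and mt-Atp8. Bases between the annotated pseudogenes of the block were not searched. How reads with several equal alignments were handled is not given in the sources used here, and its part in these levels was not tested. Reads from the identical stretches cannot be told apart by sequence.

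Of the stretches aligned to this block, only the copies of mt-Nd3 and mt-Co1 differ from the gene by a base, 1 each. The sequences around these bases are shown because they hold the only letters that differ between gene and copy in the stretches compared. Positions count from 1 at the gene's first base, and the capital marks the differing base.
mt-Nd3, chrM:9459-9481, plus strand: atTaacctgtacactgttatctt
Gm28438, chromosome 1 copy: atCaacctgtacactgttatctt
mt-Co1, chrM:6390-6413, plus strand: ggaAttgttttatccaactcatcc
Gm29216, chromosome 1 copy: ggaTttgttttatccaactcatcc
The substitutions are T3C in mt-Nd3 and A1066T in mt-Co1, over 345 and 483 compared bases. Sequences and coordinates are those of the GENCODE M21 transcripts on GRCm38.

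The abundant mitochondrial-encoded genes had fitted differences of 0.01 to 0.24, none called. mt-Co1 stood at 7179.6, 7818 and 7642 CPM in the WT libraries and 6655, 7791 and 8388 CPM in the KO libraries, with a log2 difference of 0.01 ± 0.12 (adjusted p = 0.976). mt-Cytb stood at 2744, 2824 and 3437 CPM in WT and 2893, 3177 and 3356 CPM in KO (0.07 ± 0.12, adjusted p = 0.860). mt-Nd1 stood at 2225, 2192 and 2606 CPM in WT and 2170.4, 2560.3 and 2928 CPM in KO (0.13 ± 0.13, adjusted p = 0.717). In each of these genes the groups overlapped. mt-Nd6 stood at 304, 329 and 409.6 CPM in WT and 357, 415 and 462 CPM in KO (0.24 ± 0.13, adjusted p = 0.420). mt-Nd2, mt-Nd4 and mt-Nd5 had differences of 0.12 ± 0.13, 0.07 ± 0.16 and 0.03 ± 0.13.

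The 5 mitochondrial-encoded genes whose whole coding part is copied had larger and less certain differences, with a median of 0.46 against 0.07 for the other 7. They were also shorter (median 681 against 1144 bases). With the correction for transcript length and GC content the medians were -0.02 and -0.18, and 2 of 5 and 0 of 7 were above 0. mt-Atp6 of complex V stood at 18.0, 13.3 and 24.9 CPM in the WT libraries and 19.0, 25.4 and 32.7 CPM in the KO libraries. WT replicate 3 lay inside the KO range, and the difference of 0.46 ± 0.24 had the smallest adjusted p of the 12 genes, 0.409. mt-Co2, which receives electrons from cytochrome c, stood at 22.1, 19.6 and 37.1 CPM in WT and 24.9, 33.6 and 37.1 CPM in KO (0.28 ± 0.23) and mt-Co3 at 21.7, 15.5 and 26.6 CPM in WT and 18.7, 28.5 and 32.1 CPM in KO (0.32 ± 0.23). mt-Nd3 and mt-Nd4l, small complex I subunits, had 0.72 ± 0.60 and 0.51 ± 0.56 on 236 and 322 counts. Their standard errors were thus close to the differences themselves.

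Summed over members, nuclear transcripts made up a larger share of counts in KO lungs, while the mitochondrial-encoded share overlapped between groups. The 74 nuclear genes held 0.439%, 0.393% and 0.444% of all counts in the WT libraries and 0.509%, 0.504% and 0.548% in the KO libraries. Every KO library was above every WT library, with means of 0.425 ± 0.0282% and 0.520 ± 0.0238% (SD, n = 3), a ratio of 1.22. The 12 mitochondrial-encoded genes held 1.62%, 1.77% and 1.95% in WT and 1.66%, 1.90% and 2.05% in KO. Their means were 1.78 ± 0.166% and 1.87 ± 0.197%, closer than the spread between replicates. Per nuclear count there were 3.69, 4.52 and 4.40 mitochondrial-encoded counts in WT and 3.26, 3.77 and 3.74 in KO. The means were 4.20 ± 0.447 and 3.59 ± 0.286, and the groups overlapped, since WT replicate 1 was below KO replicate 2. The mitochondrial-encoded sum rests almost wholly on the 7 genes with 35710 counts or more. The 5 genes whose whole coding part is copied on chromosome 1 held 236 to 2728 counts each. These sums were given no test and carry no correction for transcript length and GC content. With that correction, described further on, the median log2 difference was 0.02 for the nuclear and -0.14 for the mitochondrial-encoded genes. By complex, ratios of the KO to the WT mean of summed nuclear CPM were also taken without the correction. They were 1.16 in complex V, 1.21 in complex III, 1.23 in complex I and 1.39 in complex IV.

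**Figure D4:**
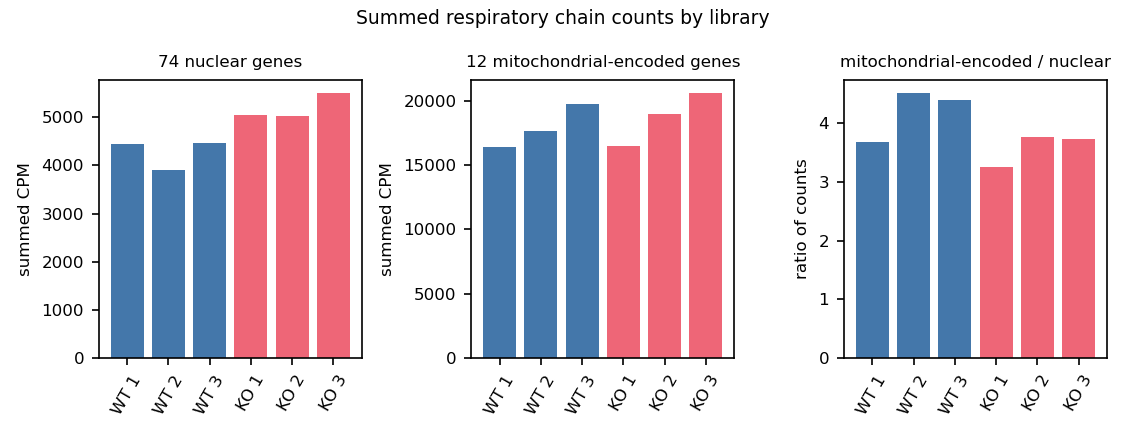
Summed CPM of the 74 nuclear genes (left), of the 12 mitochondrial-encoded genes (middle) and the ratio of their counts (right) in each library, bars from 0, WT in blue and KO in red. The 3 KO bars exceed the WT bars for the nuclear sum only. In the ratio WT 1 at 3.69 lies below KO 2 at 3.77. All panels are without the correction for transcript length and GC content.

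Single libraries carried much of the certainty of the 4 calls. Without WT replicate 1, WT replicate 2, KO replicate 2 or KO replicate 3 the number of nuclear genes called higher was 0, and without WT replicate 3 or KO replicate 1 it was 12 and 8. Leaving out 1 library also moved the calls over all genes, from 170 higher to between 22 and 404. The differences themselves changed less. Cox5a had log2 differences of 0.90, 0.90, 0.93 and 0.88 without those 4 libraries in turn, with adjusted p of 0.112, 0.116, 0.133 and 0.108. For Cox5b the adjusted p without those libraries was 0.0838 to 0.141, for Ndufb3 0.155 to 0.192 and for Uqcrb 0.147 to 0.205. The median deviation of the 74 nuclear genes from their mean over the 6 libraries was -0.11, -0.33 and -0.09 in the WT libraries and 0.14, 0.11 and 0.26 in the KO libraries. WT replicate 2 was the lowest and KO replicate 3 the highest. For the 12 mitochondrial-encoded genes the same measure was -0.26, -0.19 and 0.20 in WT and -0.17, 0.12 and 0.28 in KO, so WT replicate 3 lay among the KO libraries.

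Nuclear respiratory genes have short principal transcripts (median 750.5 bases, against 2907.5 over all tested genes), and short transcripts had higher differences over the whole table. Among other protein-coding genes, those with a principal transcript of up to 600 bases had a median log2 difference of 0.51 (n = 128), those of 600 to 800 bases 0.28, of 800 to 1000 bases 0.24, of 1500 to 2000 bases 0.10 and over 5000 bases -0.13. The nuclear members had 0.45 up to 600 bases (n = 20), 0.32 at 600 to 800 (n = 18), 0.42 at 800 to 1000 (n = 9) and 0.12 at 1500 to 2000 (n = 11). Up to 1000 bases, 24 of 47 members had all KO above all WT libraries (51.1%), against 26.6% of the 734 other genes. Over 1000 bases it was 11 of 27 (40.7%), against 9.26% of 13171 genes. These other genes reach greater lengths than the members. At 1000 to 1500 bases it was 6 of 11 members, against 18.4% of 1285 other genes. At 1500 to 2000 bases it was 4 of 11, against 14.7% of 1609. Spearman's rho of the difference with transcript length was -0.49 over the 74 members and -0.33 over 13979 protein-coding genes. Both are across genes that share the same 6 libraries.

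With an added correction for transcript length and GC content, none of the 86 members was called. This correction, chosen after seeing the data, gave each gene and library an offset fitted on the length and GC content of the principal transcript. It left 76 of 15112 genes called higher (0.503%) and 19 lower (0.126%), and 0 of 74 nuclear and 0 of 12 mitochondrial-encoded members, with 9 nuclear genes at an unadjusted p under 0.05 by edgeR. The median difference was then 0.02 for the nuclear genes, with 42 of 74 above 0, and -0.14 for the mitochondrial-encoded ones, with 2 of 12 above 0. The called genes remained positive. Cox5a had 0.59 (adjusted p = 0.148), Cox5b 0.58 (adjusted p = 0.0989), Ndufb3 0.41 (adjusted p = 0.264) and Uqcrb 0.38 (adjusted p = 0.371). By complex the corrected medians were 0.02 for complex I, 0.08 for III, 0.19 for IV and 0.02 for V. Atp5g1 had 0.61 with the offset (adjusted p = 0.0961) and 0.57 without it. The offset used its long annotated principal transcript of 4715 bases. Atp5g2 and Atp5g3, with 731 and 723 bases, had 0.08 and 0.00 with the offset. Which transcript of Atp5g1 gave the counts was not tested. Whether the relation with length arose in the tissue or in the making of the libraries was not tested.

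**Figure D5:**
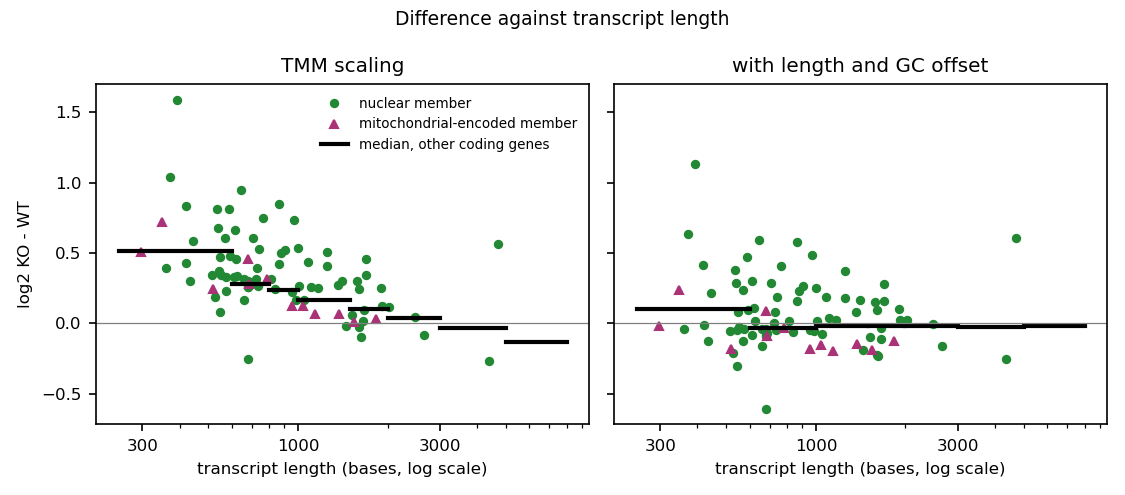
Log2 difference (KO minus WT) against principal transcript length in bases (log axis) for the nuclear (circles) and mitochondrial-encoded (triangles) genes, with TMM scaling on the left and with the length and GC offset on the right; black bars are medians of other protein-coding genes by length bin. On the left the bars fall from 0.51 to -0.13 and the nuclear genes lie around them; on the right the nuclear median is 0.02.

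Promoters of nuclear respiratory genes are known for sites of NRF1, of ETS factors such as GABP and of YY1. RefSeq promoter windows of GRCm38.p6, from 250 bases before to 50 bases after the start, were found for 61 of 74 nuclear members (66 windows). The NRF1 site, in the letters given in capitals below and searched on both strands, stood in 5 of 66 windows (7.58%), against 0.971% of all 32851 windows. Its shorter part GCATGCGC, contained in it, stood in 9 (13.6% against 2.71%). The ETS letters CCGGAAG stood in 14 (21.2% against 8.86%) and AAGATGGC of YY1 in 9 (13.6% against 2.75%). The windows of the members were richer in GC, with a median of 57.2% against 52.7%. The stretches around the full NRF1 site that lie before the start are shown, with the site in capitals, because this is the motif the family is best known for.
Atp5g2, chr15:102671065-102671104, minus strand: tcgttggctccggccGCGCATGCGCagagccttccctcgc
Atp5k, chr5:108434425-108434464, minus strand: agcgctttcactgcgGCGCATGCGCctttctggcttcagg
Cox6a1, chr5:115349096-115349135, minus strand: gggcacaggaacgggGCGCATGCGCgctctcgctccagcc
Ndufa11, chr17:56717687-56717726, plus strand: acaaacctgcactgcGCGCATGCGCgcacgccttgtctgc
The fifth window is that of Uqcrc1. Differences of these genes ran from 0.02 in Uqcrc1, 0.08 in Ndufa11, 0.23 in Cox6a1 and 0.39 in Atp5g2 to 1.04 in Atp5k, and none was called. The windows of Cox5a, Cox5b and Ndufb3 held no exact match to the 4 sets of letters, and near matches were not counted. For Uqcrb no window is given here. A match is a description of the letters and no measure of binding.

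Genes that serve the chain without matching the name rule were measured beside it. Of the 4 genes of complex II none was called, and the median difference was 0.17, or 0.03 with the length and GC offset. Its iron-sulfur subunit Sdhb had 0.31 ± 0.15 (adjusted p = 0.346). Of the 8 measured subunits and carriers outside the name rule 0 were called, with 5 above 0. Cycs, the somatic cytochrome c, stood at 41.7, 34.8 and 47.7 CPM in WT and 55.5, 57.2 and 64.4 CPM in KO, with the groups apart (0.51 ± 0.14, adjusted p = 0.0961). Cyc1, the cytochrome of complex III, had -0.05 ± 0.11.

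The fitted differences of the isoforms of complex IV subunit 4 had opposite signs. Cox4i1, the common form, stood at 116, 90.5 and 122 CPM in WT and 134, 132 and 133 CPM in KO (0.28 ± 0.12, adjusted p = 0.280). Cox4i2, the form known from lung and low oxygen, stood at 83.1, 82.1 and 71.1 CPM in WT and 63.1, 57.7 and 62.6 CPM in KO (-0.37 ± 0.12, adjusted p = 0.147). All KO libraries were above WT for Cox4i1 and below WT for Cox4i2. With the length and GC offset, Cox4i1 had -0.00, and Cox4i2 had -0.69 and was called (adjusted p = 0.0296). Ndufa4l2, a relative of Ndufa4, was also lower in every KO library (-0.44 ± 0.17, adjusted p = 0.236). Both genes are known from pericytes and smooth muscle of vessels. Markers of these cells summed to 784 to 1120.4 CPM in WT and 621 to 649 CPM in KO. Of 8 such markers 1 fell (Pdgfrb, -0.63 ± 0.13, adjusted p = 0.0347) and 0 were above 0. Their part in the values of Cox4i2 and Ndufa4l2 was not tested.

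Factors that assemble the chain or express its mitochondrial genes gave 0 calls. Complex I assembly factors had a median of 0.05 over 15 genes, and assembly factors of complexes III to V had 0.22 over 25. Ndufaf5, a complex I assembly factor, had the smallest p of the first list (0.75 ± 0.32, adjusted p = 0.292). Pet100, an assembly factor of complex IV, stood at 6.12, 4.46 and 5.78 CPM in WT and 10.6, 10.1 and 13.8 CPM in KO (1.08 ± 0.26, adjusted p = 0.0581), the groups apart. Genes of mitochondrial DNA transcription and upkeep had a median of 0.07 over 22 genes. Tfam, which packages and starts transcription of mitochondrial DNA, had 0.09 ± 0.14, and Ssbp1, the single-strand binding protein, 0.58 ± 0.23 (adjusted p = 0.256). Nuclear regulators had a median of -0.04 over 10 genes. Among them Gabpa had -0.08 ± 0.12 and Nrf1 0.03 ± 0.15, while Ppargc1a was rare with 201 counts.

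Without the length and GC offset, other mitochondrial proteins had smaller median differences than the nuclear members. Of 76 tested mitochondrial ribosomal protein genes 1 rose (1.32%, close to the 1.12% of all tested genes) and 0 fell. Of these genes 64 were above 0 and 12 below, and the median was 0.19, or 0.00 with the length and GC offset. The call was Mrpl52, at 28.7, 26.9 and 24.0 CPM in WT and 40.4, 41.4 and 47.1 CPM in KO (0.70 ± 0.14, adjusted p = 0.0325). Over 15 other mitochondrial proteins the median was 0.13 with 0 calls, or 0.07 with the offset, against 0.02 for the nuclear members with the offset. There Hspd1, the matrix chaperonin, had 0.58 ± 0.14 (adjusted p = 0.0590), whereas Cs, citrate synthase, had 0.06 ± 0.12 and Vdac1, the outer membrane channel, 0.04 ± 0.12.

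Summed markers of leukocytes, club cells and proliferation were higher in every KO library than in every WT library. Those of vascular smooth muscle and pericytes, given above, were lower. Leukocyte markers summed to 1058 to 1372 CPM in WT and 1411 to 1809.6 CPM in KO, and 3 of 7 rose (Coro1a, Cd53 and Cd52), with a median of 0.56 over the 7. Club cell markers summed to 408 to 949.6 CPM in WT and 1562 to 3488 CPM in KO, and 1 of 3 rose (Cyp2f2, 1.22 ± 0.24, adjusted p = 0.0440). Over all tested genes 1.12% were called higher in KO. Proliferation genes summed to 55.3 to 73.5 CPM and 74.3 to 142 CPM, with a median of 1.04 and 0 of 5 called. Markers of type 1, type 2, endothelial, ciliated and carcinoma cells had medians of -0.01, -0.10, -0.10, -0.05 and -0.00. Haemoglobin and other red cell markers summed to 163 to 193 CPM in WT and 156 to 333 CPM in KO. Fat markers were at 0.591 to 0.940 CPM in WT and 0.579 to 5.30 CPM in KO, with Adipoq and Lep at 0. With the length and GC offset none of these markers was called, and the medians were 0.30 for leukocytes, 1.12 for club cells and 1.07 for proliferation genes. The part of these cell types in the nuclear subunit values was not tested.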

How the data were processed

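Bulk RNA-seq of 6 lung libraries, 3 per group, was analysed. The authors deposited 1 table per library of whole-number read counts by Ensembl gene. HTSeq 0.6.1 made the counts from STAR 2.5 alignments of read pairs on GRCm38 (mm10), per the series' design text and the submitters' processing notes. Strand setting, annotation release and read filters were not given in these sources. Symbols, lengths and coordinates came from GENCODE M21 by Ensembl identifier (785 of 35275 identifiers had no symbol), and promoters from RefSeq. The tables held 0 rows for mitochondrial rRNA and tRNA, which were not analysed here. No pair of libraries held identical values.

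KO was compared with WT by edgeR 4.0.16 in R 4.3.3 (TMM, filterByExpr with a minimum count of 10, quasi-likelihood F-test with robust=TRUE, group alone), two-sided, with Benjamini-Hochberg adjustment over 15191 genes and a threshold of 0.05. The SE of a log2 difference is its size divided by the square root of F. The script was tested on simulated data. CPM uses TMM-scaled totals, and levels between genes were compared per kb of the principal transcript. Copies were sought by aligning GENCODE transcripts to each other. Alternatives were RLE and upper-quartile factors, other filters, DESeq2 1.42.0, limma-voom (limma 3.58.1), thresholds, each library left out, a replicate block and an offset for length and GC content.

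Members and lists were chosen with earlier results of these data known. Named were all mitochondrial-encoded genes; per complex the called genes, the 2 of smallest p, the 2 most abundant per kb and the least counted; paired tissue forms; per pathway list the called genes or the smallest p; and of marker lists the 2 most abundant, most of which are given within the lists' sums. Other genes named for their role (Ndufs1, Ndufv1, Ndufv2, Ndufa11, Ndufa12, Uqcrc1, Uqcrc2, Uqcrfs1, Uqcrq, Ndufa1, Cox6c, Cox7c, Atp5a1, Atp5f1, Atp5h, Atp5j, Atp5o, Atp5k, Cox4i1, Cox4i2, Ndufa4l2, Cyc1, Tfam, Nrf1, Ppargc1a, Cs, Vdac1) were chosen after their values were seen. The values of 1 nuclear member are not reported here, although it is included in the counts and sums.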

Additional observations from a re-analysis of the deposited data

How the results depend on the processing

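Of the 4 nuclear genes called higher in KO, the count became 21 without a filter on low counts, 11 with DESeq2, 9 at a threshold of 0.1, and 0 at 0.01 or with the length and GC offset, and lay between 0 and 12 when each library was left out. None of the 74 nuclear members was called lower and none of the 12 mitochondrial-encoded members in either direction under any of these settings, whereas Cox4i2, outside the name rule, was called lower with the offset. Over all genes the 170 higher and 51 lower became 578 and 225 without the filter, 362 and 225 with DESeq2, 76 and 19 with the offset, 23 and 2 at 0.01, and 315 and 160 at 0.1. Leaving out each library gave 22 to 404 higher and 2 to 174 lower. With the offset the median log2 difference of the nuclear genes was 0.024 instead of 0.32, and that of the mitochondrial-encoded genes -0.14 instead of 0.18. The cause was not tested.

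The labels number the libraries 1 to 3 in both groups but state no pairing. The numbers were not taken as pairs for that reason. Same-numbered libraries correlated at 0.05, 0.02 and 0.03 in their deviations from the group means, and differently numbered ones at -0.09 to 0.06. With 3 libraries per group these values cannot exclude a pairing. A replicate block gave 11 nuclear genes called higher, and 309 higher and 96 lower over all genes.

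Without mt-Co1 and Atp5b, the most counted gene of each set, the mitochondrial-encoded share was 1.03% in WT and 1.11% in KO, the nuclear share 0.370% and 0.459%, and their ratio 2.80 and 2.41. For the members named by rule, no difference changed sign where a call was made. Over all settings 16 of their calls were gained and 22 lost. Genes named for their role or from the lists are not in these numbers. Precision was lowest for the rarely counted Cox7a1, Cox8b, mt-Nd3 and mt-Nd4l, with standard errors of 0.55 to 0.73.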
